A study of Homo sapiens with 12 samples.

Results

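The genes described here are 10 transcripts that ERK signalling is known to induce and whose products, in most cases, turn the same signal down again. They are the phosphatase genes DUSP4, DUSP5 and DUSP6, the Sprouty genes SPRY1, SPRY2 and SPRY4, the Sprouty-related genes SPRED1 and SPRED2, and the transcription factor genes EGR1 and EGR3. Probe sets were taken where the platform annotation gave exactly 1 symbol and that symbol was a member. This gave 21 probe sets for the 10 genes, out of 54675 probe sets and 19775 genes on the array. The rule uses the annotation and no measured value, but the genes were picked with earlier results of these data known.

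The study asked what SAHM1 does to gene expression in T-cell acute lymphoblastic leukaemia. SAHM1 is a peptide held in a helix by a hydrocarbon staple, modelled on the co-activator MAML1 and designed to keep MAML1 off the NOTCH1 and RBPJ complex on DNA. RNA was read on 12 Affymetrix U133 Plus 2.0 arrays. The 4 groups were HPB-ALL cells with SAHM1 at 20 µM, HPB-ALL cells with DMSO, KOPT-K1 cells with SAHM1 at 20 µM and KOPT-K1 cells with DMSO, each for 24 hours and each with 3 cultures. DMSO is the solvent of the peptide. HPB-ALL and KOPT-K1 are established human T-cell leukaemia lines with activated NOTCH1, so each line stands for 1 leukaemia. The cultures of a group share that line, and p-values measure the spread between these cultures. No inactive peptide was among the groups.

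ERK is the end kinase of the RAS, RAF and MEK cascade, which receptors such as the T-cell receptor switch on. Active ERK drives transcription through ternary complex factors, SRF and ETS proteins, and among the genes it induces are its own brakes. DUSP proteins remove phosphate from ERK, Sprouty and SPRED proteins act upstream on RAS and RAF, and EGR factors carry the signal on to later genes. In developing thymocytes, EGR factors act downstream of the pre-T-cell receptor and ERK.

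Values are log2 of the deposited ratio, in which each array is set against the average DMSO array of its line, so 0 is the DMSO level of that line and differences between the lines in DMSO are lost. A gene is the mean of its probe sets. A change is the SAHM1 mean minus the DMSO mean, given with its SE from limma, and it was called at a Benjamini-Hochberg adjusted p under 0.05 over all genes. Being bulk RNA, the values cannot tell apart a change in all cells and a change in the number of cells that carry a transcript.

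DUSP6 and EGR1, the members with the smallest p in KOPT-K1 and HPB-ALL in turn, are shown by the 250 bases before their transcription start, because they were the members that went in opposite directions in the 2 lines. The sequences are RefSeq's on GRCh38.p14, 5′ to 3′ on the strand of the gene. DUSP6 lies on the minus strand at chr12:89352502-89352751 and EGR1 on the plus strand at chr5:138465229-138465478. Capitals mark CArG boxes (the SRF site), CRE cores, the EGR site and the RBPJ core.
DUSP6: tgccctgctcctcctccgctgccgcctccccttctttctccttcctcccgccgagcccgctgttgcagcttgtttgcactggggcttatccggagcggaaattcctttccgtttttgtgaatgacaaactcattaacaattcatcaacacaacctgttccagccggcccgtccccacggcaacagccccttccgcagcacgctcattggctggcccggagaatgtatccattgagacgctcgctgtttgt
EGR1: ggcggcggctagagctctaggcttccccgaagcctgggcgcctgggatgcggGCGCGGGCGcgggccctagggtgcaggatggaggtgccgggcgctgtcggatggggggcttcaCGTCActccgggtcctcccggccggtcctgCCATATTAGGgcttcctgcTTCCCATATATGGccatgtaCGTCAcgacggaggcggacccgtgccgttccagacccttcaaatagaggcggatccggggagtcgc

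The EGR1 window held 2 CArG boxes, at 105 and 83 bases before the start, and CArG boxes stood in 1.16% of 35116 windows of this length. It held 2 CRE cores (TGACG) on the other strand at 135 and 66 bases, a motif of 21.2% of windows. An RBPJ core (TGGGAA, in 20.8% of windows) stood on the other strand at 86 bases and overlapped a CArG box. A match to the EGR site (GCGNGGGCG, in 8.41% of windows) stood at 198 bases. The DUSP6 window held none of these letters on either strand, nor CCGGAAG, a long form of the ETS site (8.52% of windows), or the AP-1 site TGANTCA (6.57%). The shorter ETS letters GGAA were not searched for, and they do occur in the printed DUSP6 window. RefSeq's table had entries for 7 of the 10 members. These matches are a description of the letters in the windows.

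With SAHM1, 2 of the 10 members rose and 0 fell in HPB-ALL, and 0 rose and 5 fell in KOPT-K1. In HPB-ALL the risers were EGR1 and DUSP6, in a comparison where 4.96% of all genes were called higher and 4.38% lower. In KOPT-K1 DUSP6, SPRED1, SPRED2, EGR1 and DUSP4 fell, where 5.85% of all genes were called higher and 13.2% lower. At an unadjusted limma p under 0.05, 3 members were lower in HPB-ALL and 0 were higher in KOPT-K1. The share of all genes at this unadjusted threshold was not counted, so the shares above are no background for it. DUSP6 and EGR1 were thus lower in KOPT-K1 and higher in HPB-ALL, a pair of calls that 1.87% of all genes shared. The median change of the members was -0.11 in HPB-ALL, where that of all genes was -0.02, and -0.23 in KOPT-K1, where that of all genes was 0.00.

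**Figure D1:**
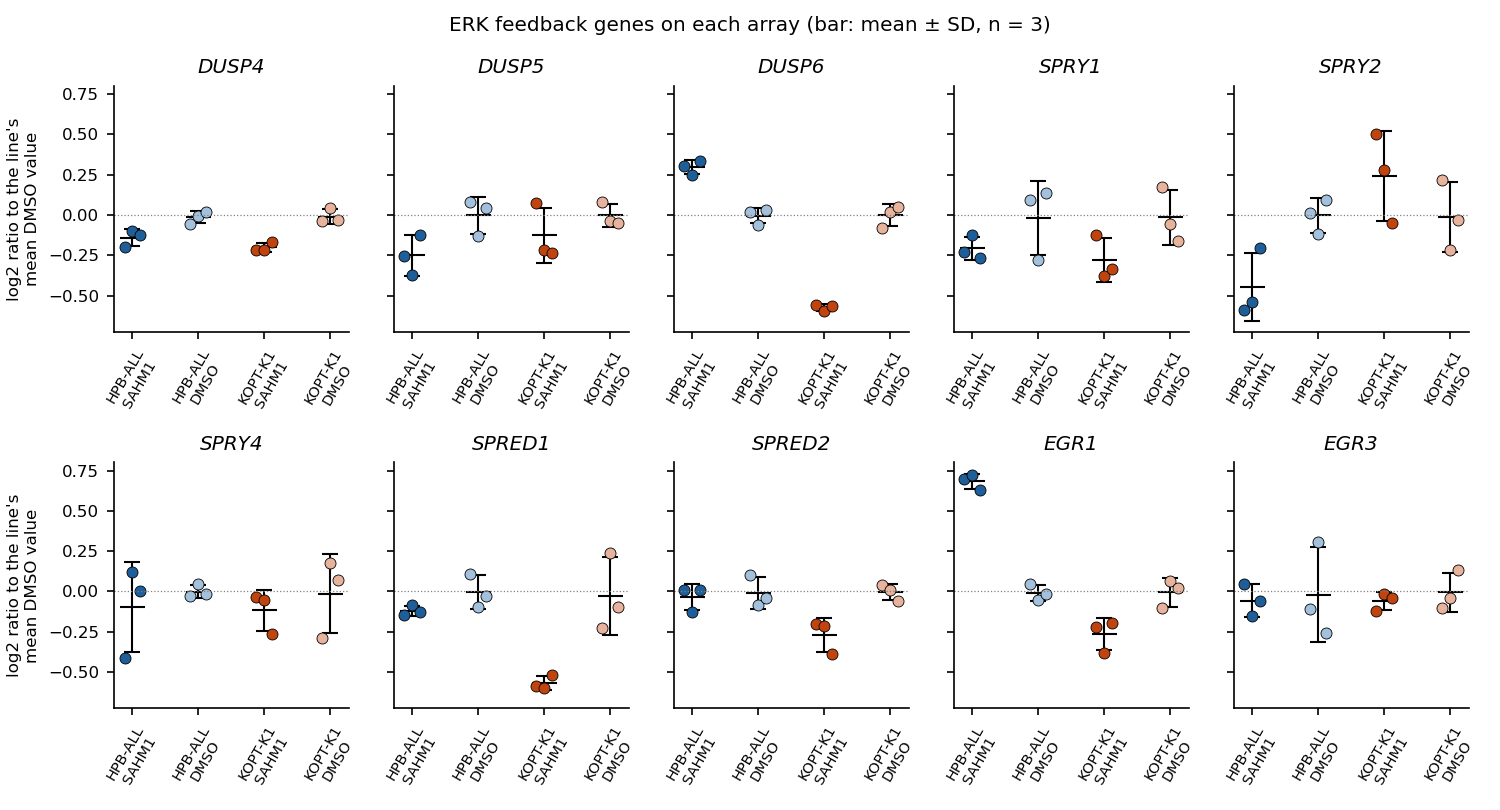
Log2 ratio to the mean DMSO value of the line (vertical axis) on each of the 12 arrays for the 10 genes. Points are arrays and black bars are the mean ± SD of 3. The EGR1 points of SAHM1-treated HPB-ALL lie between 0.63 and 0.72, and the DUSP6 points of SAHM1-treated KOPT-K1 lie between -0.60 and -0.56.

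Among the phosphatases, DUSP6, the cytoplasmic phosphatase that acts on ERK itself, had the clearest pattern. Its log2 ratios in HPB-ALL were 0.30, 0.25 and 0.34 with SAHM1, against 0.02, -0.06 and 0.03 with DMSO. In KOPT-K1 they were -0.56, -0.60 and -0.57 with SAHM1, against -0.08, 0.02 and 0.05 with DMSO. All 3 SAHM1 arrays were above all DMSO arrays in HPB-ALL and below them in KOPT-K1.

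DUSP6 rose by 0.30 ± 0.06 in HPB-ALL (1.23-fold higher, limma adjusted p = 0.0067). It fell by 0.57 ± 0.06 in KOPT-K1 (1.49-fold lower, limma adjusted p = 6.16e-05). The HPB-ALL change less the KOPT-K1 change was 0.87 ± 0.08, with a 95% confidence interval of 0.70 to 1.05 and a limma adjusted p of 4.40e-05. The difference between the lines was thus larger than the spread between cultures.

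The 3 DUSP6 probe sets gave the same order. In HPB-ALL 208892_s_at stood at 0.41 (limma adjusted p = 0.0277), 208893_s_at at 0.37 (0.0294) and 208891_at at 0.12, which passed no test (0.5414). In KOPT-K1 they stood at -0.45, -0.73 and -0.54, all called. The difference between the lines was called in each of the 3, at 0.86, 1.10 and 0.67.

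DUSP4, a nuclear phosphatase of ERK and other MAP kinases, was lower in SAHM1-treated cells of both lines by small amounts. HPB-ALL had -0.20, -0.10 and -0.12 with SAHM1, against -0.05, -0.01 and 0.02 with DMSO. KOPT-K1 had -0.22, -0.22 and -0.17 with SAHM1, against -0.04, 0.04 and -0.03 with DMSO. The arrays did not overlap in either line. The change of -0.13 ± 0.06 in HPB-ALL passed no test (limma adjusted p = 0.2065), and the fall by 0.19 ± 0.06 in KOPT-K1 did (0.0313). None of its 3 probe sets was called singly in KOPT-K1, where they ranged from -0.39 to -0.03. The gene's call was lost without DMSO replicate 1, 2 or 3 or SAHM1 replicate 1 or 2 of KOPT-K1, with adjusted p up to 0.1108. It was also lost with only that line's arrays (0.0835) and under quantile normalization within the line (-0.12, 0.4808). The response did not differ detectably between the lines (0.07, 95% confidence interval -0.11 to 0.24).

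DUSP5, a nuclear phosphatase that also holds ERK in the nucleus, passed no test. HPB-ALL had -0.26, -0.37 and -0.12 with SAHM1, against 0.08, -0.13 and 0.04 with DMSO. The change was -0.25 ± 0.10 (limma adjusted p = 0.1388), with 1 SAHM1 array among the DMSO arrays. KOPT-K1 had 0.07, -0.22 and -0.24 with SAHM1, against 0.08, -0.04 and -0.05 with DMSO, a change of -0.13 ± 0.10 (0.3952).

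Among the inhibitors that act near RAS, SPRED1 was the member with the clearest fall. SPRED1 recruits the RAS GTPase-activating protein neurofibromin to the membrane. HPB-ALL had -0.15, -0.08 and -0.13 with SAHM1, against 0.11, -0.10 and -0.03 with DMSO, and these overlapped. KOPT-K1 had -0.59, -0.60 and -0.52 with SAHM1, against -0.23, 0.24 and -0.10 with DMSO. All SAHM1 arrays of KOPT-K1 lay below all its DMSO arrays, although the DMSO arrays were spread more widely.

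SPRED1 fell by 0.54 ± 0.10 in KOPT-K1 (1.45-fold lower, limma adjusted p = 0.0030) and stood at -0.12 ± 0.10 in HPB-ALL (0.5761). The difference of 0.42 ± 0.14 between the lines missed the threshold (limma adjusted p = 0.0587), so a response particular to KOPT-K1 was not shown. Its probe sets in KOPT-K1 were 226837_at at -0.88 (0.0089), 235074_at at -0.39 (0.1160) and 244439_at at -0.34 (0.0368), all negative and 2 of them called. Single arrays decided whether the lines were told apart. The difference was called without KOPT-K1 DMSO replicate 1 or without HPB-ALL DMSO replicate 1, and its adjusted p ran from 0.0216 to 0.1320 over the 12 arrays left out in turn.

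SPRED2, the close relative of SPRED1, gave a divided picture. As a gene it stood at -0.03 ± 0.07 in HPB-ALL (limma adjusted p = 0.8857) and fell by 0.27 ± 0.07 in KOPT-K1 (0.0248). KOPT-K1 had -0.20, -0.22 and -0.39 with SAHM1, against 0.04, 0.01 and -0.06 with DMSO, with no overlap. The fall rested on probe set 212458_at. There HPB-ALL had 0.21, 0.21 and 0.26 with SAHM1, against -0.08, -0.02 and 0.10 with DMSO. KOPT-K1 had -0.72, -0.65 and -0.74 with SAHM1, against 0.06, -0.02 and -0.05 with DMSO.

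At 212458_at the SAHM1 arrays lay above all DMSO arrays in HPB-ALL, where the change of 0.23 was not called (limma adjusted p = 0.1122), and below all of them in KOPT-K1. The difference between the lines was 0.93 ± 0.11 (limma adjusted p = 2.93e-04). The other SPRED2 probe sets, 212466_at and 214026_s_at, stood at -0.24 and -0.07 in HPB-ALL and at -0.09 and 0.00 in KOPT-K1, none called. With the median of the probe sets in place of their mean, the SPRED2 change in KOPT-K1 was -0.12 and was not called (0.2763). The gene's call was also lost without KOPT-K1 DMSO replicate 1 or 2, or SAHM1 replicate 3, with adjusted p up to 0.0856. Which transcripts these probe sets read was not analysed here.

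The Sprouty genes encode inhibitors of receptor-driven RAS and RAF activation. SPRY2 had 1 probe set and values that scattered. HPB-ALL had -0.59, -0.54 and -0.20 with SAHM1, against 0.02, -0.12 and 0.09 with DMSO, without overlap. KOPT-K1 had 0.50, 0.28 and -0.05 with SAHM1, against 0.22, -0.22 and -0.03 with DMSO, with overlap. Neither line's change passed the test, at -0.44 ± 0.15 in HPB-ALL (limma adjusted p = 0.0846) and 0.26 ± 0.15 in KOPT-K1 (0.2522).

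The SPRY2 responses differed between the lines by -0.70 ± 0.21 (limma adjusted p = 0.0374), a direction opposite to those of DUSP6 and EGR1. That call rested on single arrays. It was kept in 3 of 12 fits that each left out 1 array, those without KOPT-K1 DMSO replicate 1, KOPT-K1 SAHM1 replicate 3 or HPB-ALL SAHM1 replicate 3. Over the 12 fits the difference ran from -0.84 to -0.57, with adjusted p from 0.0116 to 0.0871. In the fit over probe sets the same difference had an adjusted p of 0.0521.

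SPRY1 and SPRY4 passed no test in either line. SPRY1 stood at -0.19 ± 0.12 in HPB-ALL and -0.26 ± 0.12 in KOPT-K1, and its SAHM1 arrays overlapped the DMSO arrays in both. Its 95% confidence intervals were -0.44 to 0.06 and -0.52 to -0.01, and the limma adjusted p in KOPT-K1 was 0.1353. SPRY4 stood at -0.10 ± 0.14 in HPB-ALL and -0.10 ± 0.14 in KOPT-K1, with 95% confidence intervals of -0.39 to 0.20 and -0.40 to 0.19. Changes within those bounds are not excluded by the data.

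**Figure D2:**
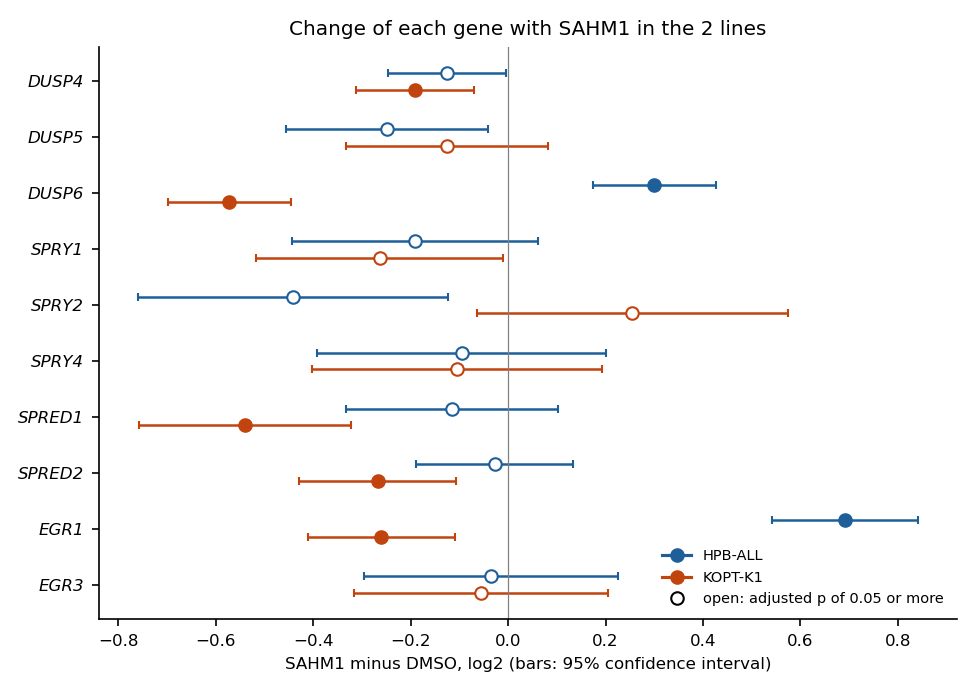
SAHM1 minus DMSO (horizontal axis, log2) of each gene in HPB-ALL and in KOPT-K1, with 95% confidence intervals from limma. Filled points have a limma adjusted p under 0.05. DUSP6 and EGR1 lie to the right of 0 in HPB-ALL and to the left in KOPT-K1.

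EGR1, an immediate early zinc finger factor, had the largest change of any member. HPB-ALL had 0.69, 0.72 and 0.63 with SAHM1, against 0.05, -0.05 and -0.02 with DMSO. KOPT-K1 had -0.22, -0.38 and -0.20 with SAHM1, against -0.10, 0.07 and 0.02 with DMSO. The HPB-ALL groups stood far apart, and the KOPT-K1 groups were close but did not overlap.

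EGR1 rose by 0.69 ± 0.07 in HPB-ALL (1.61-fold higher, limma adjusted p = 1.41e-04). It fell by 0.26 ± 0.07 in KOPT-K1 (limma adjusted p = 0.0208). The lines differed by 0.95 ± 0.10, with a 95% confidence interval of 0.74 to 1.16 and a limma adjusted p of 8.82e-05. The KOPT-K1 fall lost its call without DMSO replicate 2, DMSO replicate 3 or SAHM1 replicate 2 of that line, with adjusted p up to 0.0817.

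The 3 EGR1 probe sets did not behave alike. For 227404_s_at, HPB-ALL had 0.86, 0.77 and 0.87 with SAHM1, against -0.11, 0.11 and -0.02 with DMSO. The same probe set in KOPT-K1 had -0.65, -0.65 and -0.58 with SAHM1, against -0.11, 0.16 and -0.07 with DMSO. It was called in both lines, at 0.83 and -0.62 (limma adjusted p = 4.37e-04 and 9.13e-04), and 201694_s_at likewise, at 0.88 and -0.48 (0.0043 and 0.0365). The remaining probe set, 201693_s_at, was positive in both lines, at 0.36 in HPB-ALL and 0.32 in KOPT-K1, and passed no test (0.1396 and 0.1119). At this probe set all SAHM1 arrays lay above all DMSO arrays in both lines. Its response differed between the lines by 0.04, with a 95% confidence interval of -0.35 to 0.43, where 227404_s_at differed by 1.46. The gene value of KOPT-K1 is therefore a mean over probe sets of opposite sign.

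EGR3, the relative of EGR1 known for its place in thymocyte proliferation after pre-T-cell receptor signals, stood at -0.04 ± 0.12 in HPB-ALL and -0.05 ± 0.12 in KOPT-K1. HPB-ALL had 0.05, -0.15 and -0.06 with SAHM1, against -0.11, 0.31 and -0.26 with DMSO. Its arrays overlapped in both lines. The 95% confidence intervals were -0.30 to 0.23 and -0.32 to 0.21, so a change of the size of EGR1's in HPB-ALL lay outside both.

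Over the single probe sets, 4 of the 21 were called in HPB-ALL, where 5.15% of all probe sets were called, and 8 of 21 in KOPT-K1, where 14.6% were. The 4 belonged to DUSP6 and EGR1. The 8 were the 3 of DUSP6, 2 of EGR1, 2 of SPRED1 and 1 of SPRED2. The difference between the lines was called for 6 of 21, against 11.7% of all probe sets. All 6 were positive, as were 4648 of the 6407 called over all probe sets, and they belonged to DUSP6, EGR1 and SPRED2. Among genes, the difference was called for 3 of 10 members, against 16.8% of all genes. SAHM1 and DMSO arrays did not overlap for 4 of 10 members in HPB-ALL, against 29.1% of all genes, and for 5 of 10 in KOPT-K1, against 35.1%. Neither count without overlap is far from its background.

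**Figure D3:**
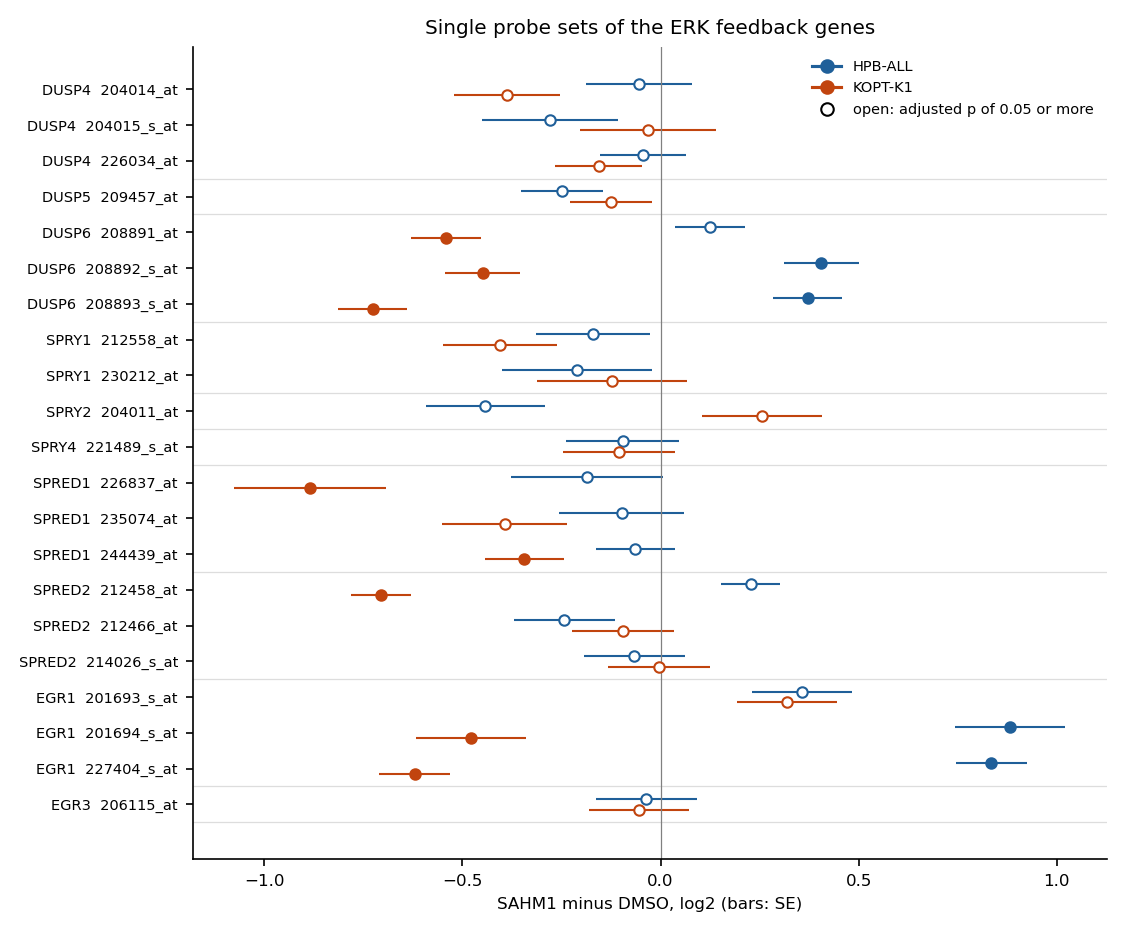
SAHM1 minus DMSO (horizontal axis, log2, bars are SE) for each of the 21 probe sets in HPB-ALL and in KOPT-K1. Filled points have a limma adjusted p under 0.05 over all probe sets. The KOPT-K1 points of 212458_at and 201693_s_at lie apart from the other probe sets of SPRED2 and EGR1.

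Genes that feed the pathway were counted in a list of 27 cascade genes, of which 21 were measured. In HPB-ALL 4 were called higher and 1 lower, where 4.96% and 4.38% of all genes were. In KOPT-K1 there were 1 higher and 8 lower, where 5.85% and 13.2% of all genes were. The median change was 0.01 in HPB-ALL and -0.09 in KOPT-K1. RASGRP1, the exchange factor that loads RAS after T-cell receptor signals, rose by 0.74 ± 0.06 in HPB-ALL (limma adjusted p = 3.00e-05) and stood at 0.10 ± 0.06 in KOPT-K1. GAB2, a docking protein, rose by 0.52 ± 0.09 in HPB-ALL (0.0026) and fell by 0.30 ± 0.09 in KOPT-K1 (0.0276). Its 1 probe set was not called in KOPT-K1 in the fit over probe sets. HRAS, a RAS protein itself, fell by 0.46 ± 0.09 in HPB-ALL (0.0086) and stood at -0.04 ± 0.09 in KOPT-K1.

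RASA2, a GTPase-activating protein that switches RAS off, went in the same directions as DUSP6. It rose by 0.27 ± 0.06 in HPB-ALL (limma adjusted p = 0.0090), with 1 of 3 probe sets called. It fell by 0.54 ± 0.06 in KOPT-K1 (6.16e-05), where all 3 of its probe sets were called. In KOPT-K1 the RAS exchange factors SOS1 and SOS2 fell by 0.35 ± 0.06 (0.0030) and 0.27 ± 0.07 (0.0139), with 2 of 5 and 2 of 6 probe sets called. RPS6KA3, a kinase that ERK activates, fell there by 0.32 ± 0.06 (0.0048). SOS1 stood at 0.12 ± 0.06 in HPB-ALL, and SOS2 rose there by 0.24 ± 0.07 (0.0400), with 1 of 6 probe sets called. The difference between the lines was called for 7 of the 21 cascade genes, 6 of them with the HPB-ALL response above that of KOPT-K1, RASA2 among them at 0.82. Over all genes 16.8% were called for it, 2253 of 3323 in that direction.

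Of 20 other genes known to respond to ERK, 19 were measured. In HPB-ALL 1 was called higher and 1 lower, and 2 were called higher and 3 lower in KOPT-K1. These counts are near the shares of all genes, which were 4.96% and 4.38% in HPB-ALL and 5.85% and 13.2% in KOPT-K1. KLF6, an early-response zinc finger factor, rose by 0.26 ± 0.06 in HPB-ALL (limma adjusted p = 0.0144) and fell by 0.37 ± 0.06 in KOPT-K1 (0.0010). Of its 5 probe sets, 1 was called in HPB-ALL, where they ranged from -0.11 to 0.51, and 3 in KOPT-K1. IER2, an immediate early gene, fell in both lines, by 0.31 ± 0.06 in HPB-ALL (0.0061) and 0.23 ± 0.06 in KOPT-K1 (0.0169). In KOPT-K1 the ETS factor gene ETV5 fell by 0.25 ± 0.06 (0.0117), with 1 of 5 probe sets called and a range from -0.94 to 0.25. EREG, a ligand of the EGF receptor, rose there by 0.29 ± 0.07 (0.0134), with 0 of 2 probe sets called. The medians, 0.01 in HPB-ALL and 0.09 in KOPT-K1, stood close to those of all genes in HPB-ALL and above them in KOPT-K1.

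Of 13 further DUSP, Sprouty, SPRED, EGR and NAB genes, 12 were measured. In HPB-ALL 2 were called higher and 2 lower, where 4.96% and 4.38% of all genes were. DUSP10, a phosphatase of JNK and p38, rose by 0.50 ± 0.08 (limma adjusted p = 0.0028), and DUSP16, a phosphatase of JNK, by 0.30 ± 0.07 (0.0223). DUSP7, an ERK phosphatase close to DUSP6, fell by 0.27 ± 0.07 (0.0283), and NAB2, a co-repressor that binds EGR factors, fell by 0.37 ± 0.10 (0.0378). Of the probe sets in HPB-ALL, 0 of 2 were called singly for DUSP7, 1 of 2 for NAB2, 1 of 2 for DUSP10 and 2 of 4 for DUSP16. In KOPT-K1 limma called 0 of the 12, where 5.85% of all genes were called higher and 13.2% lower. At an unadjusted limma p under 0.05, 1 was higher and 1 lower there, a threshold for which all genes were not counted.

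**Figure D4:**
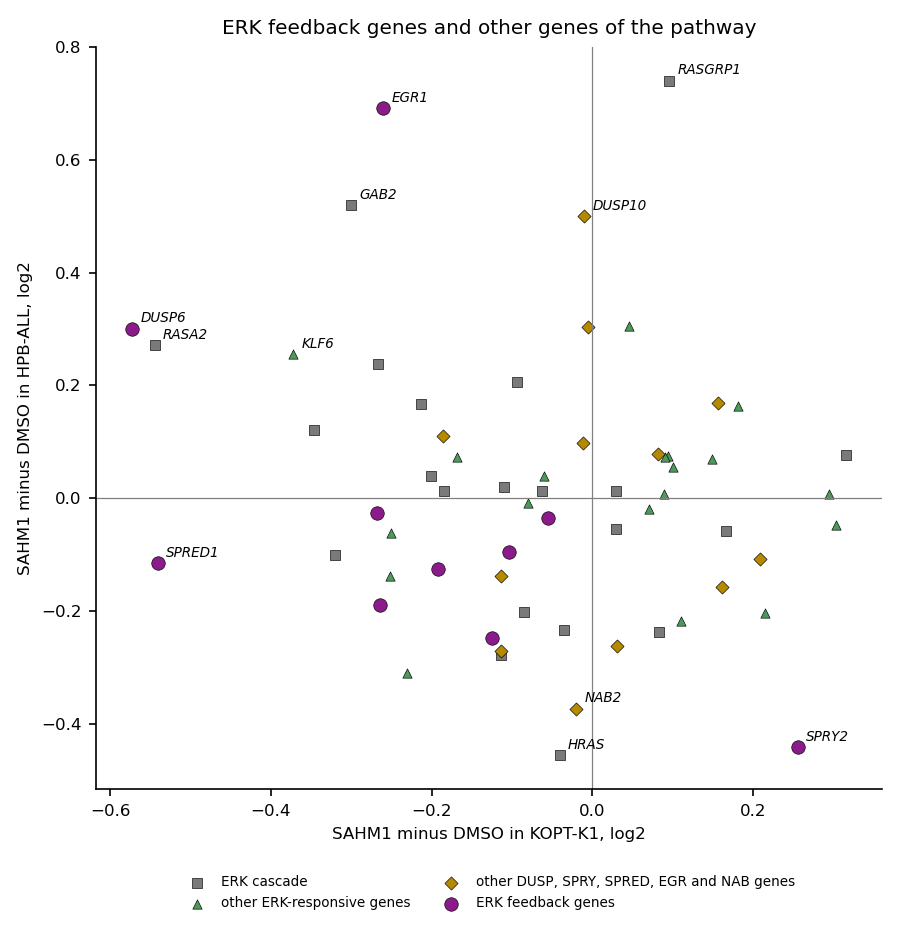
SAHM1 minus DMSO in HPB-ALL (vertical axis, log2) against the same in KOPT-K1 (horizontal axis, log2) for the 10 members and the 3 lists, each point a gene. DUSP6, RASA2, KLF6, GAB2 and EGR1 lie at the upper left, higher in HPB-ALL and lower in KOPT-K1, and SPRY2 lies at the lower right.

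The genes whose 12 values lay nearest to those of DUSP6, by root mean square difference in log2 units, were RASA2 (0.05), TMEM260 (0.0595), TUBE1 (0.0619), THAP9-AS1 (0.0638) and ATXN7 (0.0641). Those nearest to EGR1 were GRK3 (0.0807), ZEB1-AS1 (0.0921), CREBRF (0.0959), NDC80 (0.0967) and ZNF652 (0.0968). RASA2 is in the cascade list, and the other 9 are in none of the lists.

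Some technical values moved with the treatment. In HPB-ALL the 3 probe sets for 18S ribosomal RNA averaged 1.73, 1.89 and 1.35 with SAHM1, against 1.05, -1.01 and -1.65 with DMSO (exact permutation p = 0.10, the smallest that 3 against 3 arrays allow). In KOPT-K1 the 18 hybridization spike probe sets averaged 0.60, 0.85 and 1.05 with SAHM1, against 0.01, 0.01 and -0.02 with DMSO (exact permutation p = 0.10). The ACTB probe sets at the 5′ end less those at the 3′ end, a sign of RNA quality, stood at -0.23, -0.41 and -0.09 with SAHM1, against 0.05, -0.01 and -0.03 with DMSO, in HPB-ALL. In KOPT-K1 they stood at -0.09, -0.20 and -0.22 with SAHM1, against 0.01, -0.0011 and -0.0091 with DMSO. All SAHM1 arrays lay below all DMSO arrays in both lines (exact permutation p = 0.10 in each). GAPDH probe sets showed no such gap, at -0.0123 in HPB-ALL and 0.0089 in KOPT-K1 (exact permutation p = 0.70 and 0.80). The SD over all probe sets of an array averaged 0.24 with SAHM1 and 0.14 with DMSO in HPB-ALL, and 0.31 with SAHM1 and 0.12 with DMSO in KOPT-K1. Only the DMSO arrays are set against their own mean, so a wider SD with SAHM1 is no technical sign by itself. The ratio scale keeps no levels, so the presence of T-cell markers could not be checked. Of 9 measured T-lineage markers, CD3G rose in HPB-ALL (0.71 ± 0.18) while CD7 (-0.51 ± 0.11) and LCK (-0.22 ± 0.06) fell, and CD1A fell in KOPT-K1 (-0.54 ± 0.06). Of the B-cell, myeloid and erythroid markers, limma called MS4A1 in KOPT-K1, at 0.32 ± 0.07, and none in HPB-ALL (0 at an unadjusted p under 0.05). The part of these in the results was not tested beyond the values that follow.

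The HPB-ALL DMSO array with the highest 18S value, replicate 1, had DUSP6 at 0.02 and EGR1 at 0.05, below all SAHM1 arrays of that line. Its 18S value of 1.05 was itself below those of all SAHM1 arrays (1.35 to 1.89), and its EGR1 value was the highest of the 3 DMSO arrays. This array therefore cannot tell the 18S level and the treatment apart. With the 18S level as a covariate, EGR1 stood at 0.62 ± 0.12 and DUSP6 at 0.29 ± 0.10 in HPB-ALL. Neither was called with it (limma adjusted p = 0.0684 and 0.3887), and without it they stood at 0.69 and 0.30. This fit cannot fully separate the 18S level and the treatment either, since all SAHM1 arrays of HPB-ALL lay above all DMSO arrays in 18S level. The difference between the lines was still called for both, at 0.87 ± 0.14 for EGR1 (0.0134) and 0.86 ± 0.12 for DUSP6 (0.0054). With the spike level added, DUSP6 was called in KOPT-K1, at -0.51 ± 0.08 (0.0154). The changes of DUSP4, SPRED1, SPRED2 and EGR1 there stood between -0.47 and -0.16 and were not called. The differences between the lines, at 0.79 for DUSP6 and 0.85 for EGR1, then missed the threshold (0.0562 and 0.0969).

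Quantile normalization forces 1 distribution on all the arrays it is run on. The DMSO arrays of these ratios are narrower than the SAHM1 arrays, so it widens DMSO values and shrinks SAHM1 values by construction. A loss of calls is thus partly built in. Quantile normalization lowered the sizes of DUSP6 and EGR1. Within each line it left EGR1 at 0.50 (limma adjusted p = 0.0120) and DUSP6 at 0.22 (0.1939) in HPB-ALL, and EGR1 at -0.17 (0.3702) and DUSP6 at -0.40 (0.0178) in KOPT-K1. The differences between the lines were 0.62 for DUSP6 (0.0123) and 0.67 for EGR1 (0.0146), both called. It also moved the balance of calls over all genes. As deposited, 980 genes were called higher and 866 lower in HPB-ALL, and 1156 higher and 2605 lower in KOPT-K1. After it, 93 were higher and 152 lower in HPB-ALL, and 45 higher and 236 lower in KOPT-K1.

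**Figure D5:**
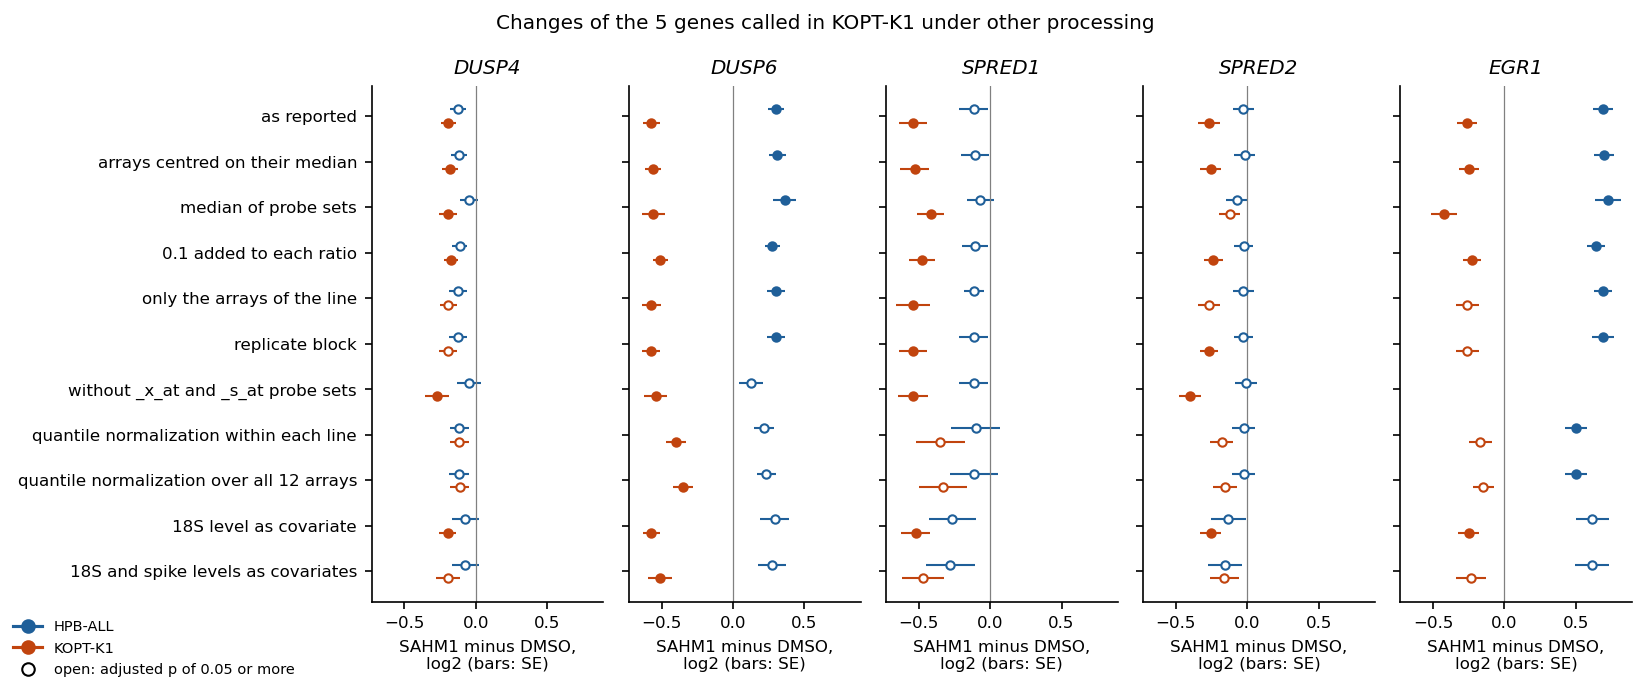
SAHM1 minus DMSO (horizontal axis, log2, bars are SE) for DUSP4, DUSP6, SPRED1, SPRED2 and EGR1 in HPB-ALL and in KOPT-K1 under each way of processing (vertical axis). Filled points have a limma adjusted p under 0.05. DUSP6 in KOPT-K1 stays filled throughout, and EGR1 has no value without _s_at probe sets.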

How the data were processed

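Expression was measured in 12 cultures (4 groups of 3) on Affymetrix U133 Plus 2.0 arrays. RMA is named per the submitters' processing notes, and for its version and annotation the sources used here give nothing. The file holds deposited linear ratios. In 54675 of 54675 probe sets the 3 DMSO arrays of each line averaged 1 (tolerance 1e-06), so the authors' values are relative to the DMSO mean of their line, and they ran from 0.0827 to 6.98. Array levels are lost, so a filter on dim probe sets or background correction could not be tried.

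The members and gene lists were chosen with earlier results of these data known. Ratios were turned into log2 with no pseudocount, and probe sets with 1 symbol (41097) were averaged into 19775 genes, since 1801 carried several symbols and 11777 none. limma 3.58.1 in R 4.3.3 (lmFit, eBayes, two-sided) was fitted to all 12 arrays with 4 group terms and 8 residual degrees of freedom. The contrasts were SAHM1 against DMSO in each line and the difference of these responses (HPB-ALL less KOPT-K1), with Benjamini-Hochberg adjustment over 19775 genes. Probe sets were fitted likewise over 54675, and p-values given for a probe set are from that fit. The steps were tested on simulated data. Technical values were compared by exact two-sided permutation of 3 against 3 arrays. The number of arrays limits the precision. Replicate numbers did not pair the cultures: deviations of same-numbered arrays correlated between -0.05 and 0.07.

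Named were all members with their probe sets, up to 4 called genes per list and line with the smallest p, and the 5 genes nearest to the member with the smallest p in each line. The called cell type markers were named after their values were seen. Alternatives were quantile normalization, array centring, probe set choice and summary, 18S and spike covariates, a replicate block, single lines, an added 0.1 and leaving out each array. Quantile normalization over all 12 arrays was added after the data were seen. Promoter windows are RefSeq's for GRCh38.p14.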

Additional observations from a re-analysis of the deposited data

Results flagged for a closer look

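The responses of the 2 lines were set against each other by the test of the difference itself, HPB-ALL minus KOPT-K1, and 14 of the members, the genes named from the 3 pathway lists and the called cell type markers passed it in limma. The genes named as nearest to DUSP6 and EGR1 were chosen for their likeness and are not counted. Over all genes 16.8% passed. The list genes and markers were named because they were called in a line, which makes a pass more likely, so the 14 give no rate. Among the ERK feedback genes, those that passed were EGR1 (0.95), DUSP6 (0.87) and SPRY2 (-0.70). The SPRY2 difference is the weakest of them and depended on single arrays. Among the cascade genes they were GAB2 (0.82), RASA2 (0.82), RASGRP1 (0.65), SOS2 (0.50), SOS1 (0.47) and HRAS (-0.42). KLF6 (0.63) and DUSP10 (0.51) passed as well. Of the T-lineage markers, CD3G (1.21), CD1A (0.60) and LCK (-0.34) did, and the CD3G difference was the largest of the 14. The 18S level was higher on all SAHM1 arrays than on any DMSO array of HPB-ALL, and so was the spike level in KOPT-K1. With both levels as covariates the differences of EGR1 (0.85), DUSP6 (0.79) and SPRY2 (-0.96 ± 0.32) were not called, at limma adjusted p of 0.0969, 0.0562 and 0.2923. The SPRY2 difference was thus larger in size than without covariates, with a wider error.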

How the results depend on the processing

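The calls depended on the scaling of the arrays, although quantile normalization of these ratios lowers changes partly by construction. Within-line quantile normalization left 245 genes called in HPB-ALL, 281 in KOPT-K1 and 210 for the difference between the lines (172 higher and 38 lower, against 2253 and 1070 as deposited). Over all 12 arrays it left 417, 136 and 211. Fits that held the 18S level called 52 in HPB-ALL and 324 for the difference, and fits that held 18S and spike levels 39 in HPB-ALL, 597 in KOPT-K1 and 68 for the difference. Without _x_at and _s_at probe sets 1019 and 2498 genes were called in HPB-ALL and KOPT-K1, of fewer genes tested. Singly, 2816, 7962 and 6407 probe sets were called. Apart from that built-in effect of quantile normalization, the causes were not tested.

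Of the 2 members called in HPB-ALL, 1 (EGR1) was called under either quantile normalization, 0 with the 18S covariate or with both, and 0 without _x_at and _s_at probe sets, which leaves EGR1 unmeasured and DUSP6 at 0.12. Of the 5 in KOPT-K1, 1 (DUSP6) was called under either quantile normalization or both covariates, 2 with only that line's arrays and 3 with the replicate block. The block called 3 in HPB-ALL, SPRY2 among them (adjusted p = 0.0398), and 3 for the difference. It called 1261 genes in HPB-ALL, 3071 in KOPT-K1 and 2616 for the difference. With both covariates 0 of 3 differences were called.

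Leaving out each array in turn gave 913 to 2012 genes in HPB-ALL, 2528 to 3885 in KOPT-K1 and 2341 to 3369 for the difference, and 2 to 3, 2 to 5 and 2 to 4 members. The HPB-ALL count fell by over 1.5 times without SAHM1 replicate 1, 2 or 3 (1124, 913, 1117) or DMSO replicate 2 or 3 (915, 996). In KOPT-K1 2 members were called without DMSO replicate 2, and 3 without DMSO replicate 1 or 3 or SAHM1 replicate 2. DUSP6 and EGR1 in HPB-ALL, DUSP6 and SPRED1 in KOPT-K1, and the differences of DUSP6 and EGR1 kept their calls in 12 of 12 fits. DUSP4 in KOPT-K1 kept its call in 7 of 12.

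The 10 called member changes were recomputed 214 times in all under the alternatives, of which 51 lost the call and 0 reversed. All reversed values belong to changes that were not called. With both covariates EGR3 in HPB-ALL was 0.052, DUSP5 in KOPT-K1 0.086 and SPRY1 in KOPT-K1 0.017, and the differences were -0.32 for SPRY1 and -0.0815 for SPRY4. Within-line quantile normalization gave differences of -0.0001 for DUSP4, -0.030 for SPRY1, -0.014 for SPRY4 and -0.015 for EGR3. Over all 12 arrays it gave -0.0048 for DUSP4, -0.046 for SPRY1 and -0.0245 for SPRY4. Without single arrays, SPRY4 (-0.21 to 0.063), SPRED2 (-0.066 to 0.028) and EGR3 (-0.16 to 0.13) in HPB-ALL, EGR3 in KOPT-K1 (-0.10 to 0.0125), and the differences of SPRY1 (-0.0585 to 0.15), SPRY4 (-0.10 to 0.17) and EGR3 (-0.10 to 0.18) crossed 0.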
